A study of Mus musculus with 2 samples.

Results

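The Frizzled genes encode seven-pass membrane receptors whose cysteine-rich outer domain binds lipid-modified Wnt ligands. The family has 10 members in the mouse, Fzd1 to Fzd10. All 10 were among the 32285 genes counted, and all were followed here in every cell class and in both libraries, whatever their level. The samples were total cerebellar cells of mouse embryos at E16.5, a stage at which granule cell precursors divide on the cerebellar surface while radial glia and other progenitors line the ventricle. Single cells were captured in droplets and the 3′ ends of their transcripts were sequenced, a method in which each captured molecule carries a unique molecular identifier (UMI) and is counted once. The control library came from embryos without cre. The mutant library came from embryos that carried Blbp-cre together with Ctnnb1(ex3)fl/wt and with Smarca4fl/fl. In these the Blbp promoter drives Cre in radial glia and other neural progenitors, exon 3 of 1 allele of Ctnnb1 (beta-catenin) is flanked by loxP sites, and so is part of both alleles of Smarca4, the ATPase of the BAF chromatin remodelling complex. These mutants had cerebellar lesions, per the series' design text. Each genotype was 1 library made from 3 pooled samples, so no spread between animals can be given, no test was possible, and every interval below covers counting error only.

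In the canonical branch of Wnt signalling a Frizzled and its co-receptor Lrp5 or Lrp6 receive the ligand, and beta-catenin then accumulates and acts with TCF/LEF factors on target genes. Removal of exon 3 makes beta-catenin resistant to degradation, downstream of the receptors. Other branches use Frizzleds without beta-catenin, among them planar cell polarity, in which Fzd3 and Fzd6 guide axons and orient cells. Fzd4 also binds Norrin (Ndp), a ligand outside the Wnt family that is needed for vessels of the brain and retina. The ubiquitin ligases Rnf43 and Znrf3 remove Frizzleds from the cell surface, and R-spondins hold these ligases back through the receptors Lgr4, Lgr5 and Lgr6. By protein sequence the family falls into the groups Fzd1, Fzd2 and Fzd7; Fzd5 and Fzd8; Fzd3 and Fzd6; and Fzd4, Fzd9 and Fzd10.

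The filters kept 15967 cells of the control and 15864 of the mutant library, with 175805547 and 173436433 UMIs in all and a median of 10016 and 9714 UMIs per cell. The libraries shared 64 barcodes among the kept cells. Haemoglobin made up 7.55% of control and 8.74% of mutant UMIs. Smarca4 was at 68.1 CPM (UMIs per 1000000 UMIs) in the control and 49.5 CPM in the mutant library, and Ctnnb1 at 118 and 172 CPM. Counts at 3′ ends need not lie in the deleted exons, so these 2 levels do not check the labels. Cells were assigned to a type by a marker gate. A marker counted in a cell when its level exceeded its mean over the cells of both libraries, and the cell entered the type with the most such markers if these were at least 3 and no other type had as many. Gates with at least 50 cells held 14 types in the control library, and 11 types reached 50 cells in both. A further gate used 8 genes taken from an earlier analysis of these data for their high ratio of mutant to control (Fstl4, Adamts19, Rgs6, Hpse2, Pde1a, Cyp1b1, Tmem132c and Shox2). It is called the lesion gate here and is no cell type. It held 4519 mutant cells (28.5% of the mutant library) and 7 control cells. No type was entered by 4314 control and 5361 mutant cells, which are called ungated.

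The gates carried their own markers. Summed over the list, the 8 endothelial markers stood at 5825 CPM in control endothelial-gated cells and 16.03 CPM in the other control cells, and the 8 progenitor and astroglia markers at 17878 and 592 CPM. The granule cell precursor gate was less sharp, with 1487 against 782 CPM. The erythroid gate was loose as well, since 105 of its 171 control cells had no more than the minimum of 3 markers. In the mutant library 156 of its 234 cells were at that minimum.

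Promoter windows from RefSeq (GRCm38.p6) are described here because the mutant carries a change in beta-catenin, and TCF/LEF factors, the partners of beta-catenin, bind DNA with the core letters CTTTG. Windows of 300 bases, from 250 bases before to 50 after the RefSeq start, were matched for 6 of the 10 genes, Fzd1, Fzd4, Fzd5, Fzd7, Fzd9 and Fzd10. CTTTG was searched on both strands and was found in 53.9% of all 32851 windows, so its presence is common. The longer forms CTTTGA and CTTTGT, which contain the core, occurred in 5257 and 6147 of the windows. The core was found in the windows of Fzd1 (2 matches), Fzd7 (1) and Fzd10 (1), and these letters were not in the windows of Fzd4, Fzd5 and Fzd9. In Fzd1 there was 1 match of each longer form and in Fzd7 1 of CTTTGT. Each match is shown in a stretch of 30 bases, written 5′ to 3′ on the strand of its gene, with the core or its reverse complement in capitals; the first Fzd1 stretch lies at chr5:4758437-4758466 and the next at chr5:4758236-4758265, both on the minus strand, and those of Fzd7 and Fzd10 lie at chr1:59482007-59482036 and chr5:128600956-128600985 on the plus strand.
Fzd1, first match: cgcagcactCAAAGtagcagtctgtgacca
Fzd1, next match: ttcatagctactCTTTGtgccggagcggag
Fzd7: ccacagagaaaaCAAAGcgcgctattggat
Fzd10: ggaagaagaggcCAAAGtttgcgcgctgag
The Fzd10 stretch lies inside the Fzd10 gene of GENCODE M21, which starts at 128600844 and thus before the RefSeq start, and the other stretches lie outside the GENCODE genes. The Fzd10 match began 138 bases before the RefSeq start and the Fzd7 match 128 bases before it. In the Fzd10 window 77.7% of the bases were G or C, against 54.0% in the Fzd1 window. A match of this kind is a description of the letters and does not show binding.

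Among control cells Fzd3 made up most of the family's counts. In the whole control library Fzd3 stood at 123 CPM (95% interval 121 to 124), Fzd2 at 37.0 CPM, Fzd9 at 10.1 CPM, Fzd10 at 8.42 CPM and Fzd1 at 6.04 CPM. Fzd7 was at 4.25, Fzd6 at 3.46, Fzd8 at 2.12, Fzd4 at 1.97 and Fzd5 at 0.660 CPM. Fzd3 therefore supplied 62.4% of the 34593 Frizzled UMIs and Fzd2 18.8%. These shares compare 3′ UMI counts, which do not grow with transcript length. Fzd3 and Fzd6 have transcripts of up to 7 exons, whereas Fzd1, Fzd2, Fzd7, Fzd8, Fzd9 and Fzd10 consist of 1 exon. The sources used here do not say whether intron reads were counted, and such reads could only add to genes with introns.

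**Figure D1:**
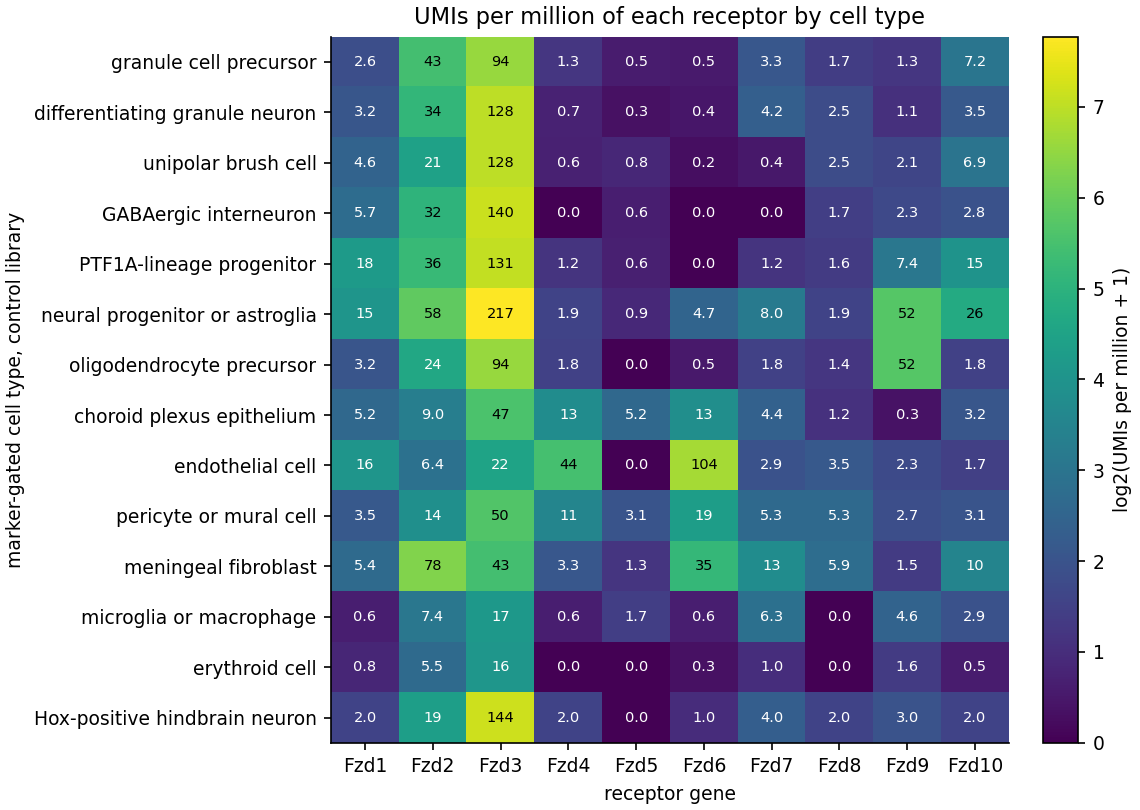
UMIs per 1000000 UMIs (CPM) of each of the 10 receptors (columns) in the 14 control cell types with at least 50 gated cells (rows), with the value printed in each square and the colour giving log2 of the value plus 1. Fzd3 was high in all neural types, Fzd6 and Fzd4 were highest in endothelial cells (104 and 43.7 CPM), and Fzd9 was at about 52 CPM in progenitors and oligodendrocyte precursors and below 8 CPM elsewhere.

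The receptors at 10 CPM or more differed between some classes of control cells and were the same in others. Neural progenitors and astroglia, whose gate includes the Blbp gene Fabp7 as a marker, had the highest summed level, with 386 CPM (378 to 394) over the family. They had 5 receptors at 10 CPM or more: Fzd3 at 217, Fzd2 at 57.8, Fzd9 at 52.1, Fzd10 at 25.7 and Fzd1 at 15.5 CPM. Granule cell precursors, differentiating granule neurons, unipolar brush cells, GABAergic interneurons and Hox-positive hindbrain neurons had only Fzd3 and Fzd2 at that level. In granule cell precursors Fzd3 was at 94.0 and Fzd2 at 42.5 CPM. In differentiating granule neurons the levels were 128 and 34.3 CPM, so that Fzd3 was higher and Fzd2 lower than in the precursors, with intervals that did not overlap.

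Vessels and coverings of the brain had other receptors. In endothelial cells Fzd6 was the leading member at 104 CPM (89.6 to 121) and 51.6% of the family's UMIs, followed by Fzd4 at 43.7 CPM (34.4 to 54.8), while Fzd3 was at 21.6 CPM (15.2 to 29.7), an interval that holds its level in erythroid-gated (15.9 CPM) and microglia-gated cells (16.6 CPM). The endothelial gate was 1.0% of control UMIs but held 29.4% of all Fzd6 and 21.7% of all Fzd4 UMIs of the control library. Meningeal fibroblasts had the highest level of Fzd2 (78.0 CPM, 69.5 to 87.3), of Fzd7 (12.9 CPM) and of Fzd8 (5.92 CPM), and the second highest of Fzd6 (35.3 CPM). The level of Fzd8 did not differ beyond its interval from that in mural cells (5.30 CPM). Choroid plexus epithelium, which makes cerebrospinal fluid, was the only type in which Fzd5 exceeded 5 CPM in the control library (5.23 CPM, 3.1 to 8.27), although the interval overlapped that of mural cells (3.09 CPM); it also had Fzd6 at 13.4 and Fzd4 at 12.8 CPM. Fzd4 and Fzd6 had a similar pattern over the 14 control types, with a Pearson r of 0.89 between their log2(CPM + 1) values. All types come from 1 library, so this r is a description.

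Fzd9 was the most restricted of the more abundant receptors. Progenitors and astroglia held 74.2% of its control UMIs with 14.4% of all UMIs. Oligodendrocyte precursors had the same level (52.2 CPM, 43.1 to 62.6, against 52.1 CPM, 49.4 to 55.0), and there Fzd9 made up 28.9% of the family's UMIs. The next type, PTF1A-lineage progenitors of inhibitory neurons, had 7.45 CPM. Fzd10 was highest in progenitors and astroglia (25.7 CPM, 23.7 to 27.7), followed by PTF1A-lineage progenitors (14.9 CPM) and meningeal fibroblasts (10.3 CPM), which did not differ beyond their intervals. Fzd1 was led by PTF1A-lineage progenitors (18.0 CPM), endothelial cells (15.7 CPM) and progenitors and astroglia (15.5 CPM), whose intervals overlapped, and was at 5.69 CPM or less in the other control types.

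For each receptor that reached 10 CPM in a control type, the 3 genes with the most similar profile over the 14 control types were read from the same log2(CPM + 1) values. Fzd9 was closest to Olig1 (r = 0.97), Gm4675 and Dbx2. Olig1 is itself a marker of the oligodendrocyte precursor gate, so its profile over the types was set in part by the gating. Fzd3 was closest to Wnk3 (r = 0.96), Kif21a and Srgap3. For Fzd6 these were Serpinb9 (r = 0.97), Arhgef5 and Gstt2, and for Fzd4 Myl4 (r = 0.97), Bcam and Arhgef5. Fzd2 was closest to Nxpe4 (r = 0.91), Rhbdd3 and Npr2. Fzd10 was closest to Nkain4 (r = 0.89), Lypd6 and Mgst1, Fzd1 to Limch1 (r = 0.87), Mcc and Nhsl1, and Fzd7 to Proca1 (r = 0.84), Ghdc and Nfatc1. Fzd5 and Fzd8 stayed below 10 CPM in all control types and were not compared.

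Between the libraries the family differed in its make-up, with more Fzd10 and Fzd1 and less Fzd2 and Fzd9 in the mutant. A gene was called higher or lower when it reached 10 CPM in either library, differed by at least 1.5-fold and had a counting interval of the ratio on 1 side of 1. Over all 9785 genes that reached the level, 8.64% were called higher and 6.25% lower in the mutant library. Of the 10 receptors 5 reached the level, of which 2 were called higher (Fzd10 and Fzd1) and 2 lower (Fzd2 and Fzd9). The sum over the family was 197 CPM in the control and 268 CPM in the mutant library, a ratio of 1.36 (1.34 to 1.38). In sums over a library, fewer cells of a type and less RNA per cell cannot be told apart.

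Fzd10 went from 1480 UMIs (8.42 CPM) in the control to 13488 UMIs (77.8 CPM) in the mutant library, a ratio of 9.24 (8.75 to 9.75). It thereby moved from the fourth to the second rank of the family, from 4.28% to 29.04% of its UMIs. Fzd1 went from 1061 to 2007 UMIs (6.04 to 11.6 CPM, ratio 1.92, 1.78 to 2.07). Fzd2 fell from 6507 to 3771 UMIs (37.0 to 21.7 CPM, ratio 0.587, 0.564 to 0.612), and Fzd9 from 1782 to 698 UMIs (10.1 to 4.02 CPM, ratio 0.397, 0.363 to 0.434). The granule cell precursor gate held 2673 control and 613 mutant cells, and that of differentiating granule neurons 3634 and 834. Fzd2 was at 42.5 and 35.3 CPM in the precursors and at 34.3 and 26.4 CPM in the neurons. It was called in neither gate, where 6.16% and 5.67% of genes were called. Fzd3 was at 123 and 140 CPM (ratio 1.14, 1.12 to 1.16) and was not called. The other 5 receptors were below the level in both libraries, with 1.97 and 2.77 CPM for Fzd4, 0.660 and 0.479 CPM for Fzd5, 3.46 and 3.96 CPM for Fzd6, 4.25 and 3.51 CPM for Fzd7, and 2.12 and 2.29 CPM for Fzd8.

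**Figure D2:**
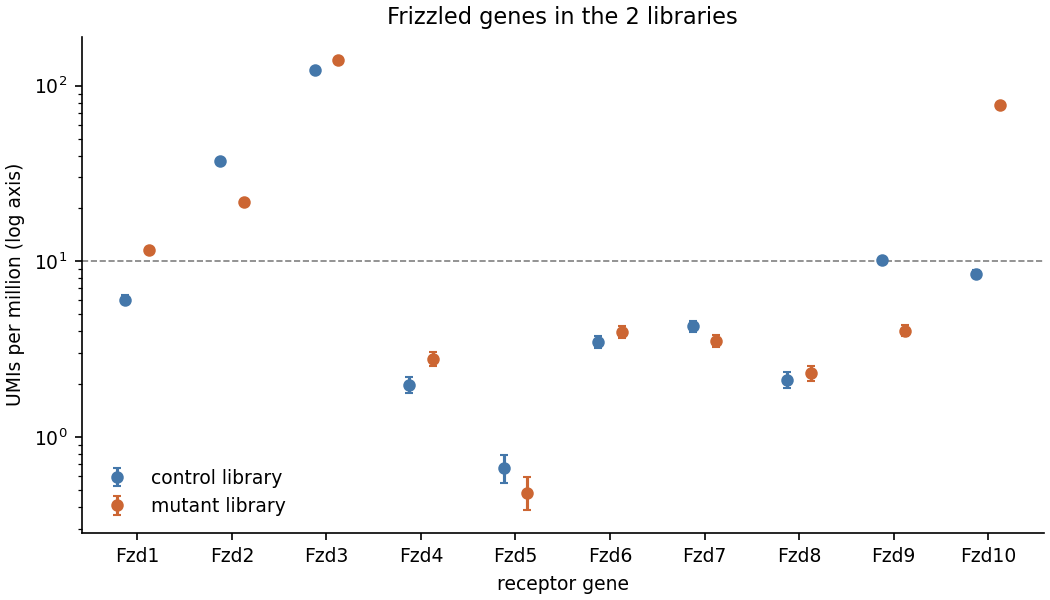
UMIs per 1000000 UMIs (CPM, log axis) of the 10 receptors in the control and mutant library, with 95% counting intervals and a dashed line at 10 CPM, the level required for a call. Fzd10 was at 8.42 CPM in the control and 77.8 CPM in the mutant library, while Fzd2 and Fzd9 were lower in the mutant.

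The neighbouring gene Fzd10os is transcribed away from Fzd10 on the opposite strand (chromosome 5, 128579106 to 128600693, minus strand, with Fzd10 at 128600844 to 128604093 on the plus strand, GRCm38), and the annotated genes do not overlap. It was at 17.3 CPM in the control and 26.8 CPM in the mutant library, a ratio of 1.55 (1.48 to 1.62) that was called higher. The ratio was 1.26 without lesion-gated cells and 0.990 without clusters made up mostly of mutant cells, and neither is a call. In control cells Fzd10os exceeded Fzd10 in granule cell precursors (18.9 against 7.15 CPM) and meningeal fibroblasts (38.4 against 10.3 CPM). In control progenitors and astroglia both were near the same level (25.4 and 25.7 CPM). Fzd10 exceeded Fzd10os in the mutant cells of this gate (126 against 34.7 CPM) and in lesion-gated cells (145 against 39.2 CPM).

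Lesion-gated cells had 3 receptors at 10 CPM or more, Fzd2, Fzd3 and Fzd10. The same 3 reached this level in mutant granule cell precursors, differentiating granule neurons and unipolar brush cells. Fzd3 was at 159 CPM (155 to 162) and Fzd10 at 145 CPM (142 to 148), and these 2 receptors made up 47.8% and 43.7% of the family's UMIs. Fzd2 was at 11.7 CPM, Fzd1 at 8.75 CPM, Fzd7 at 3.36 CPM and Fzd9 at 0.724 CPM. These cells were 28.7% of mutant UMIs and held 53.5% of the Fzd10 UMIs of the mutant library. Control cells in the lesion gate were too few to compare, so control progenitors and astroglia, whose gate includes Fabp7, served as the reference. Against them 21.3% of 10256 genes were called higher and 21.6% lower. Of the 5 receptors that reached 10 CPM, Fzd10 was called higher (145 against 25.7 CPM, ratio 5.65, 5.22 to 6.13) and 3 were called lower: Fzd9 (0.724 against 52.1 CPM, ratio 0.0139, 0.00968 to 0.0193), Fzd2 (11.7 against 57.8 CPM, ratio 0.202, 0.184 to 0.223) and Fzd1 (8.75 against 15.5 CPM, ratio 0.566, 0.493 to 0.651). Against progenitor-gated cells of the mutant in place of the control, the ratio of Fzd10 was 1.15, that of Fzd9 0.0369 and that of Fzd2 0.218. With clusters in place of gates, the ratio of Fzd1 to the control was 0.804, which is under the 1.5-fold size, and those of Fzd10, Fzd2 and Fzd9 were 8.48, 0.385 and 0.0283. Fzd3 was at 0.730 times the control level (0.705 to 0.756) and was not called. The summed level was 332 against 386 CPM.

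**Figure D3:**
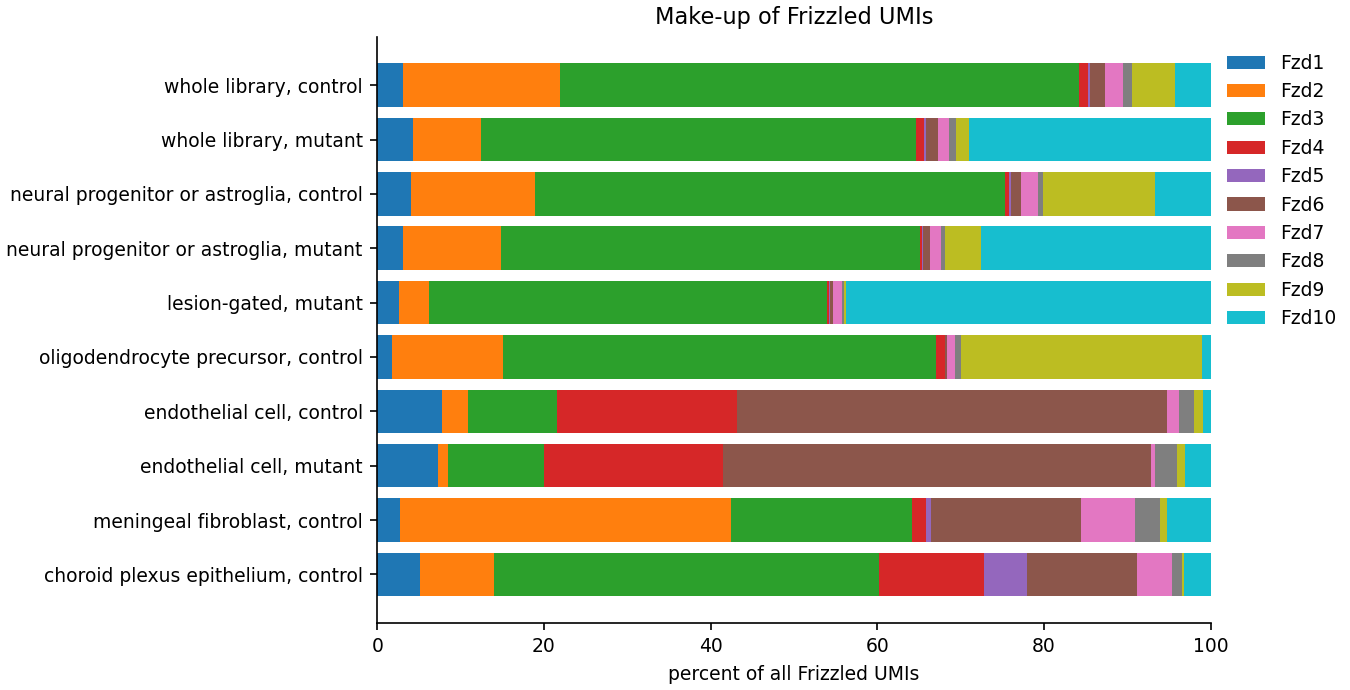
Share of each receptor in all Frizzled UMIs of the whole libraries and of selected cell types, in percent. Fzd10 made up 4.28% of the control and 29.04% of the mutant library and 43.7% in lesion-gated cells, while the make-up in endothelial cells was alike in both libraries, with Fzd6 at 51.6% and 51.3%.

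The level of Fzd10 within lesion-gated cells followed the number of progenitor markers. It was 98.5 CPM (94.2 to 103) in the 1857 cells with none of the progenitor and astroglia markers above their mean, 138 CPM (132 to 143) in the 1496 cells with 1, and 220 CPM (212 to 228) in the 1166 cells with 2 or more. Fzd3 varied less over the same cells, from 150 to 173 CPM, and Fzd9 stayed at 0.566 to 1.10 CPM. Lesion-gated cells with a UMI of the cycling genes Mki67 or Top2a had 163 CPM of Fzd10 (157 to 169), against 137 CPM (133 to 141) in those without.

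Progenitor- and astroglia-gated cells of the mutant library had the same 5 receptors at 10 CPM or more as those of the control library, at other levels. In this gate 10.4% of the genes that reached the level were called in either direction, and Fzd10 was called higher and Fzd9 lower. Fzd10 was at 25.7 CPM in control and 126 CPM (122 to 131) in mutant cells, a ratio of 4.93 (4.53 to 5.37). Fzd9 was at 52.1 CPM in control and 19.6 CPM (17.9 to 21.5) in mutant cells, a ratio of 0.376 (0.338 to 0.418). With clusters in place of gates the ratios were 1.43 for Fzd10, under the 1.5-fold size, and 0.573 for Fzd9. Fzd3 (217 and 231 CPM), Fzd2 (57.8 and 53.6 CPM) and Fzd1 (15.5 and 14.4 CPM) were not called.

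These differences moved with the clusters that the gated cells came from. The cells of both libraries were also grouped into 37 clusters, with the Frizzled genes and the genes of the pathway lists left out of the clustering, and in 8 of them the percentage of all mutant cells was 5 or more times that of all control cells. These mutant-dominated clusters held 56.4% of the mutant and 1.39% of the control cells, 89.5% of the mutant library's Fzd10 UMIs, and 1104 of the 1978 mutant progenitor-gated cells. Among progenitor-gated cells outside them (2281 control and 874 mutant cells) Fzd10 was at 25.7 and 34.5 CPM (ratio 1.34, 1.18 to 1.53), Fzd9 at 52.6 and 35.7 CPM (ratio 0.679, 0.605 to 0.761) and Fzd2 at 58.1 and 66.1 CPM, and none was called (4.62% of genes were). Over the whole library without these clusters (10.5% called) Fzd10 was the only receptor called, with a ratio of 2.16 (2.01 to 2.33), beside 0.668 for Fzd9, 0.749 for Fzd2 and 1.02 for the family's sum. Fzd1 had a ratio of 1.55 (1.41 to 1.71) there but was at 9.08 CPM in the mutant, under the level required for a call, and Fzd3 had 0.969 (0.946 to 0.993). Without the lesion-gated cells alone (12% called), the ratio of Fzd10 was 6.03 and that of Fzd2 0.696, which is not a call. The rule for mutant-dominated clusters and the clusters named below were chosen after the values were seen.

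Control progenitors themselves were of more than 1 kind in their receptors. In cluster 3, whose leading genes included the astroglial genes Slc6a11 and Aqp4, the 1109 control progenitor-gated cells had Fzd2 at 89.9 CPM (84.8 to 95.1), Fzd9 at 78.7 CPM (74.0 to 83.6) and Fzd10 at 9.42 CPM (7.84 to 11.2). In cluster 10, whose leading genes included Rspo1 and Gria1, the 751 control progenitor-gated cells had the opposite order, with Fzd10 at 55.4 CPM (50.5 to 60.7), Fzd9 at 19.2 CPM and Fzd2 at 18.7 CPM. Fzd3 was similar in the 2 clusters (213 and 231 CPM), and Fzd1 was at 12.3 and 21.9 CPM. Mutant progenitor-gated cells of the same clusters showed the same contrast. In cluster 3 the 538 mutant cells had Fzd9 at 45.2 CPM (40.5 to 50.4) and Fzd10 at 18.5 CPM (15.5 to 21.9). In cluster 10 the 156 mutant cells had Fzd10 at 97.9 CPM (84.4 to 113) and Fzd9 at 12.5 CPM (8.01 to 18.6). The intervals of Fzd9 in cluster 3, and those of Fzd10 in both clusters, did not overlap between the libraries.

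**Figure D4:**
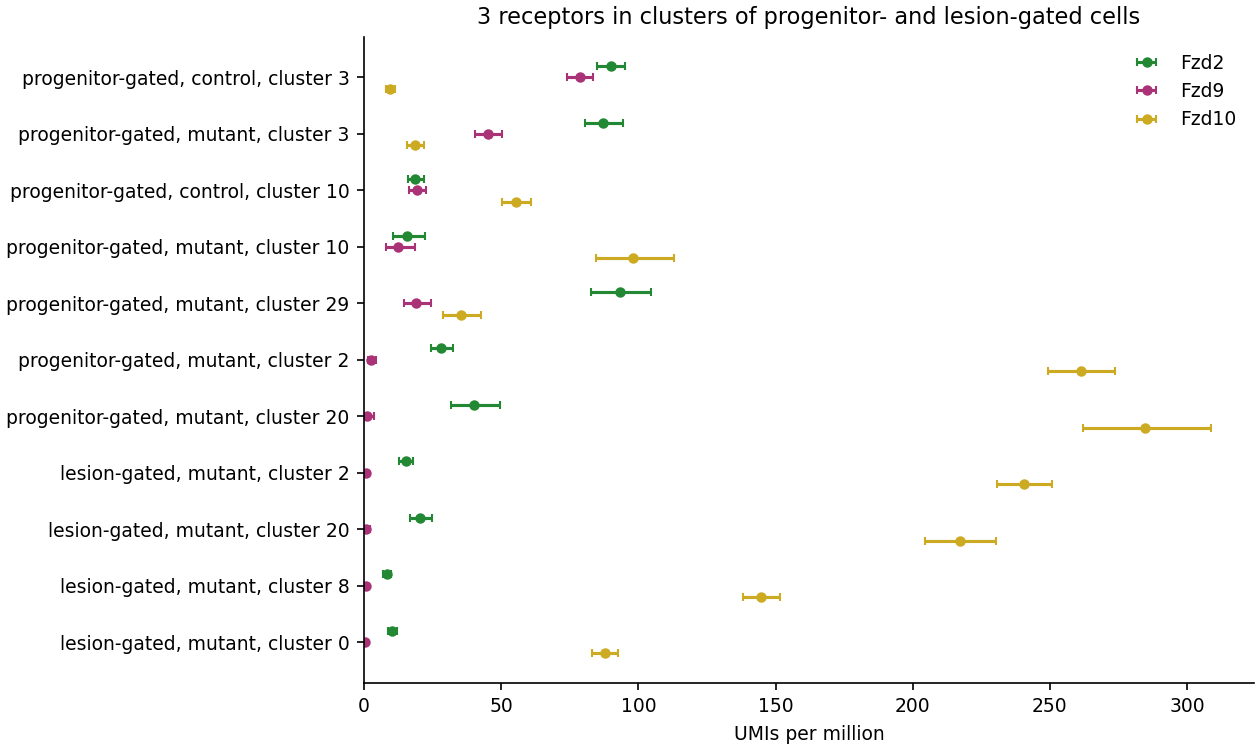
UMIs per 1000000 UMIs (CPM) of Fzd2, Fzd9 and Fzd10 in progenitor- and lesion-gated cells, split by cluster and library, with 95% counting intervals. Control progenitor-gated cells were high in Fzd2 and Fzd9 in cluster 3 and high in Fzd10 in cluster 10, and the mutant-dominated clusters 2 and 20 had Fzd10 at 217 to 285 CPM.

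The mutant-dominated clusters also differed among themselves. In cluster 2 Fzd10 was at 261 CPM in the 557 progenitor-gated cells and at 241 CPM in the 960 lesion-gated cells, and in cluster 20, led by mitotic genes, at 285 and 217 CPM. Lesion-gated cells of cluster 8 had 145 CPM and those of cluster 0 had 87.7 CPM. Gdf10, 1 of the progenitor and astroglia markers, was among the leading genes of cluster 2. The rise of Fzd10 with progenitor markers in lesion-gated cells was therefore not separated from these differences between clusters. Wif1, a secreted Wnt antagonist, was at 1050 CPM over all mutant cells of cluster 8 and 455 CPM over those of cluster 2. This order was the reverse of that of Fzd10 in the gated cells of these clusters, which are a different set of cells. Cluster 29 was dominated by mutant cells too but resembled cluster 3 in Fzd2 (93.2 CPM in its progenitor-gated cells), with Fzd3 at 299, Fzd10 at 35.2 and Fzd9 at 18.9 CPM.

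Fzd1 had a source outside the lesion gate. Ungated cells held 22.1% of its control and 41.1% of its mutant UMIs, and in the ungated cells 19.4% of genes were called, among them Fzd1 (6.26 to 16.49 CPM), Fzd10 (6.45 to 48.3 CPM) and Fzd2 (30.9 to 15.1 CPM). The whole libraries had Fzd1 at 6.04 and 11.6 CPM, so the ungated cells were near the library's level in the control and above it in the mutant. Cluster 7, a mutant-dominated cluster led by genes that included Tfap2d, had Fzd1 at 33.1 CPM (23.1 to 46.1) in 129 control cells and at 40.9 CPM (37.4 to 44.8) in 1277 mutant cells. The level of this cluster did not differ beyond its intervals between the libraries, while its number of cells did. Purkinje-gated cells of the mutant, with 101 cells and most at the minimum of 3 markers, had Fzd1 at 34.0 CPM (22.9 to 48.5). Of these 101 cells 53 lay in mutant-dominated clusters. The 42 control cells were too few to compare.

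In the other gated types, Fzd10 was the receptor called most often. Over the 11 types with at least 50 cells in both libraries, 39 of the 110 pairs of type and receptor reached 10 CPM, of which 10 were called higher and 3 lower, and Fzd10 made up 9 of the 10 higher calls. In granule cell precursors (6.16% of genes called) Fzd10 was at 7.15 and 23.0 CPM, in differentiating granule neurons (5.67% called) at 3.53 and 14.7 CPM, in unipolar brush cells (10.2% called) at 6.90 and 21.2 CPM, and in pericytes and other mural cells (9.04% called) at 3.09 and 24.0 CPM. In meningeal fibroblasts (9.7% called) Fzd10 was at 10.3 and 19.7 CPM and Fzd7 was called lower, at 12.9 and 6.81 CPM (ratio 0.529, 0.319 to 0.862). In oligodendrocyte precursors (11.4% called) Fzd10 was at 1.81 and 13.3 CPM, from 4 and 14 UMIs, a ratio of 7.33 (2.30 to 30.6).

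Microglia- and erythroid-gated cells had Fzd10 counts as well, and whether these types express Fzd10 was not tested. In microglia-gated cells (19.2% called) Fzd10 was at 2.86 and 19.1 CPM (11.6 to 29.4 in the mutant), and in erythroid-gated cells (23.9% called) at 0.522 and 11.7 CPM, from 2 and 59 UMIs, a ratio of 22.4 (5.94 to 189). Without the mutant-dominated clusters these mutant levels were 10.1 CPM, from 10 UMIs, and 3.76 CPM, that of granule cell precursors was 22.2 CPM, that of mural cells 23.2 CPM and that of fibroblasts 12.9 CPM. Fzd3 was called higher in erythroid-gated cells (15.9 and 26.0 CPM) and was at 15.4 and 15.8 CPM without those clusters. Wif1, at 300 CPM the more abundant of the 2 transcripts in the whole mutant library, was also found in these gates, with 2.53 UMIs for each Fzd10 UMI in erythroid-gated, 2.85 in microglia-gated and 2.90 in mural-gated mutant cells. This number was 1.23 in fibroblasts, 6.37 in unipolar brush cells, 8.27 in endothelial cells and 5.07 in lesion-gated cells, so the 2 transcripts did not keep 1 ratio over the types. The mutant levels of Fzd10 in granule lineage cells, unipolar brush cells, oligodendrocyte precursors, mural cells and fibroblasts lay inside the interval of the microglia-gated cells, as did the 18.5 CPM of cluster 3. All of these levels were above the 11.7 CPM of the erythroid-gated cells, and the lowest, 13.3 CPM in oligodendrocyte precursors, rested on 14 UMIs. The levels of endothelial cells (6.65 CPM) and choroid plexus epithelium (6.05 CPM) lay below the microglia interval. Without the mutant-dominated clusters granule cell precursors and mural cells stood above the microglia-gated cells, whose level then rests on 10 UMIs. How far free RNA makes up the Fzd10 counts of these types was not tested, and no expression by them is read from these values. The levels of progenitor-gated (126 CPM) and lesion-gated cells (145 CPM) lay above the microglia interval.

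**Figure D5:**
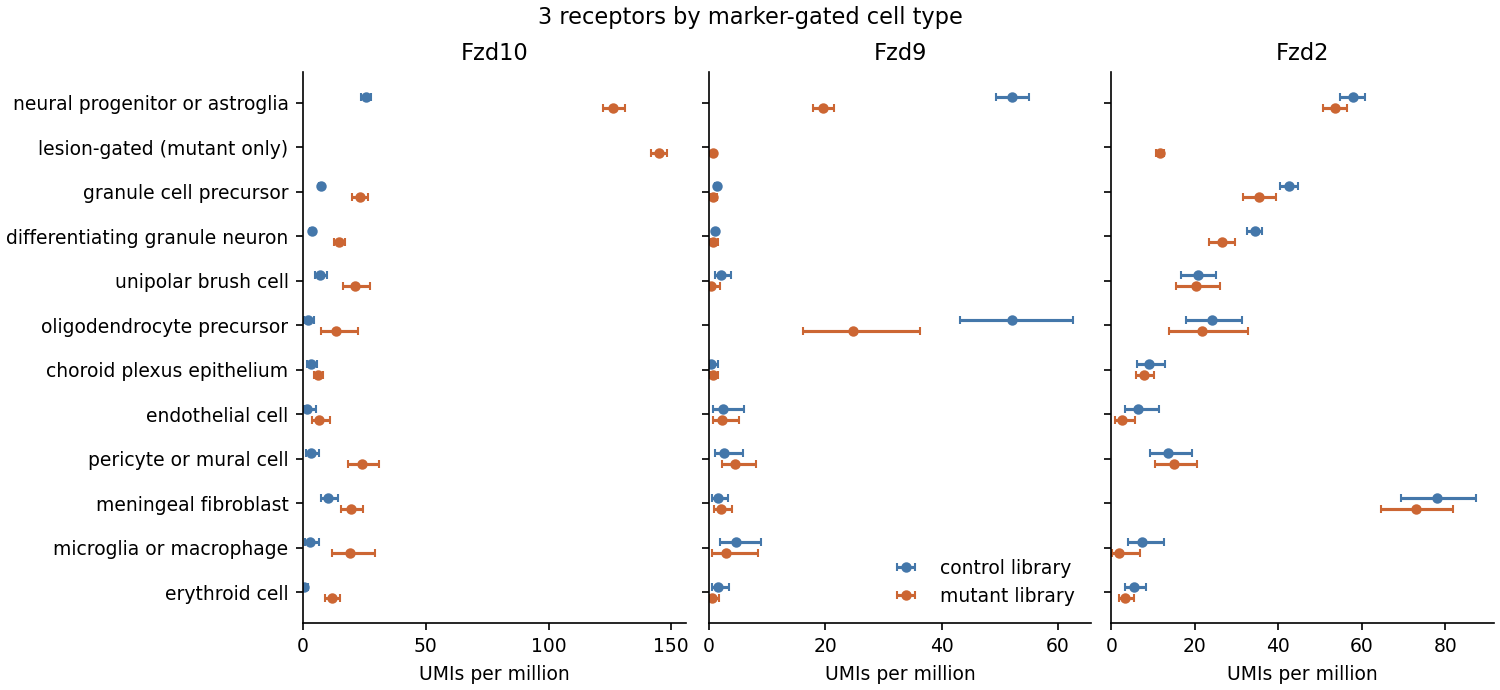
UMIs per 1000000 UMIs (CPM) of Fzd10, Fzd9 and Fzd2 in marker-gated cell types of the control and mutant library, with 95% counting intervals. Mutant Fzd10 was at 126 and 145 CPM in progenitor- and lesion-gated cells and at 24.0 CPM or less in the other types shown, microglia- and erythroid-gated cells included.

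Fzd9 was the receptor called lower in oligodendrocyte precursors as well, at 52.2 and 24.7 CPM (ratio 0.474, 0.297 to 0.730), and remained called without the mutant-dominated clusters (52.0 and 26.8 CPM, 205 and 89 cells, 11.6% of genes called). With clusters in place of the gate its ratio was 0.700, which is under the 1.5-fold size. No receptor was called in endothelial cells or choroid plexus epithelium. In endothelial cells (9.51% called) Fzd6 was at 104 and 112 CPM (ratio 1.07, 0.881 to 1.30), Fzd4 at 43.7 and 47.0 CPM (ratio 1.07, 0.792 to 1.46), Fzd3 at 21.6 and 24.8 CPM and Fzd1 at 15.7 and 15.96 CPM. In choroid plexus epithelium (7.39% called) Fzd3 was at 46.8 CPM in both libraries, Fzd4 at 12.8 and 14.99 CPM and Fzd6 at 13.4 and 11.2 CPM. The intervals allow ratios of up to 1.46 for endothelial Fzd4 and 1.74 for endothelial Fzd1, so equal levels are not shown.

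The number of cells with a receptor UMI was compared after thinning each cell to 3000 UMIs, which dropped 2396 shallower cells of the control and 2028 of the mutant library. A UMI of Fzd10 was found in 2.39% of control and 17.4% of mutant cells, in 7.15% and 25.5% of progenitor-gated cells, and in 32.2% of lesion-gated cells. The matching shares in microglia-gated cells were 0.885% and 6.25%, and in erythroid-gated cells 0.588% and 4.29%, at a median of 10139 and 10625 UMIs before thinning in microglia-gated and 21752 and 21074 UMIs in erythroid-gated cells. Fzd9 was found in 13.7% of control and 5.38% of mutant progenitor-gated cells and in 0.198% of lesion-gated cells. UMIs of at least 2 different Frizzled genes were found in 7.16% of control and 11.4% of mutant cells. In progenitor-gated cells these shares were 20.9% and 23.7%, in lesion-gated cells 14.98%, and in erythroid-gated cells 0.588% and 0.429%. Without thinning, a UMI of Fzd10 was found in 32.7% of mutant cells.

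Other genes of the pathway were read from lists that hold the ligands, co-receptors, regulators of Frizzled turnover, secreted antagonists, transducers, planar cell polarity genes and target genes. The median log2 ratio of mutant to control over all 9785 genes was 0.03, and 8.64% were called higher and 6.25% lower, shares to which 1 gene called of 7 or of 9 is near. Regulators of Frizzled turnover were called higher for 5 of the 6 members that reached 10 CPM, with a median log2 ratio of 1.88. Among these the ligase Rnf43 went from 1.65 to 20.4 CPM, the receptors Lgr6 and Lgr5 from 0.899 to 19.3 and from 6.62 to 37.6 CPM, and the R-spondin Rspo3 from 4.21 to 13.0 CPM. Of 8 secreted antagonists 5 were called higher, with Wif1 at 2.35 and 300 CPM, Notum, which removes the lipid from Wnts, at 0.984 and 53.4 CPM, Dkk1 at 0.0569 and 10.8 CPM and Dkk2 at 1.72 and 13.0 CPM. Of 7 target genes of beta-catenin 6 were called higher, led by Tnfrsf19, Lef1, Axin2 (18.3 to 113 CPM) and Nkd1.

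Receptor partners and transducers differed less between the whole libraries. Of 9 co-receptors and other Wnt receptors none was called higher and Ror1, a receptor for Wnt5a, was called lower (134 to 77.8 CPM). None of 9 transducers was called. Both ligands that reached 10 CPM of the 20 listed were called higher, Wnt5a from 24.9 to 48.2 CPM and Wnt3 from 6.44 to 10.9 CPM. Of 7 planar cell polarity genes Ankrd6 alone was called, from 10.0 to 48.0 CPM.

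Lesion-gated cells were compared with control progenitors over the same lists, beside a median log2 ratio of 0.07 over all genes, of which 21.3% were called higher and 21.6% lower. The counts of co-receptors and transducers are near these shares. Of 6 ligands 3 were called lower and none higher: Wnt7a (12.8 to 0.945 CPM), Wnt7b (37.3 to 5.23 CPM) and Ndp, the Fzd4 ligand Norrin (15.2 to 7.54 CPM). Among 9 co-receptors Ror1 was called higher (26.6 to 96.5 CPM), and Tspan12, a partner of Fzd4, Lypd6 and Smo were called lower, with Tspan12 at 84.5 and 30.4 CPM. Of 6 regulators of turnover 5 were called higher, including Znrf3 (114 to 443 CPM) and Rnf43 (1.34 to 53.9 CPM), and Lgr4 was called lower (49.8 to 17.1 CPM). Of 8 antagonists 5 were called higher and 3 lower (Sfrp1, Sfrp2 and Dkk3), Sfrp1 being at 87.1 and 11.9 CPM. Of 8 planar cell polarity genes 4 were called lower, among them Celsr1 (27.3 to 4.83 CPM) and Vangl1 (10.8 to 3.64 CPM), and Ankrd6 was called higher (30.8 to 102 CPM). Of 10 transducers 3 were called higher, Dact1, Gsk3b and Gsk3a, and of 7 targets 6 were called higher, with Lef1 at 5.83 and 362 CPM.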

How the data were processed

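Single-cell RNA sequencing was done on 2 libraries, 1 per genotype, each from 3 pooled samples. The authors deposited UMI counts per gene and barcode, made with Cell Ranger 7.0.1 on mm10 per the submitters' processing notes; no intron setting is given in the sources used here. Cells with at least 1000 UMIs, at least 500 genes and at most 10% mitochondrial UMIs were kept, and doublets were marked with the Scrublet method of scanpy 1.11.5 at an expected 16% (845 control and 618 mutant cells removed). Counts were summed per gate and scaled to CPM (UMIs per 1000000); 95% intervals were exact Poisson for levels, exact conditional binomial for ratios and Clopper-Pearson for shares. log2 ratios used a pseudocount of 1 CPM. A count of 0 allows up to 3 counts. With 1 library per genotype no test was made. Clusters came from 2000 variable genes, 30 principal components, 15 neighbours and the Leiden method (leidenalg 0.10.2) at resolution 1. The calling script was checked on simulated data.

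All 10 members were named, with the first 3 genes by likeness and up to 4 called genes per pathway list, by size of the log2 ratio; genes named beyond these were chosen after their values were seen. The members, marker lists, pathway lists and lesion genes were chosen with earlier results of these data known, and the gate's scoring rule was set after the data were seen. Alternatives covered scaling, filters, doublets, gates, thinning and left-out cells.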

Additional observations from a re-analysis of the deposited data

How the results depend on the processing

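Every ratio rests on 1 library per genotype, so animals, dissection and library cannot be told apart from genotype, and intervals cover counting error only. The family ratio of 1.36 was 1.33 with median-of-ratios scaling, 1.34 with all barcodes, 1.23 without lesion-gated cells and 1.02 without mutant-dominated clusters; the last 2 settings were chosen after seeing the data. The number of receptors called in the whole library, 4 as reported, was 2 at 2-fold. It was 3 without lesion-gated cells (12% of all genes called) and 1 without mutant-dominated clusters (10.5%). The number of pathway genes called, 20 as reported, was 11 and 10 under the last 2 settings. It was 16 at 2-fold and 30 with no level filter, over different numbers of genes tested. The 13 calls over cell types became 7 without mutant-dominated clusters, and these 7 were not all among the 13. Fzd4 in meningeal fibroblasts was called higher only without those clusters (3.36 and 10.03 CPM, ratio 2.99). In the full gate it was at 3.35 and 9.84 CPM (ratio 2.94), under the level required for a call. The share of all genes called in fibroblasts without those clusters is not given here. The share of all genes called is not given here for 2-fold, no level filter or the pooled cell types. Those counts are therefore without a background. The Fzd10 ratio of lesion-gated cells to control progenitors, 5.65, was 8.48 with clusters in place of the gate and 1.15 against mutant progenitors. The mutant share of cells with an Fzd10 UMI, 17.4%, was 27.4% at 6000 UMIs and 32.7% unthinned. No receptor that was called changed direction under these settings. For single receptors and types, 129 values under other settings lay within the counting interval of the reported ratio or within 1.5 times a reported count, and 38 did not. Calls can still end within that interval, as for Fzd9 in oligodendrocyte precursors. With clusters in place of gates, Fzd10 in fibroblasts (1.38) and Fzd3 in erythroid cells (1.14) also fell under the 1.5-fold size. Without mutant-dominated clusters the uncalled whole-library ratios of Fzd3 and Fzd5 went from 1.14 to 0.969 and from 0.725 to 1.25. Those of Fzd4 and Fzd6, both under the minimum level in the whole library, went from 1.41 to 2.67 and from 1.14 to 2.07. Median-of-ratios scaling shifted log2 ratios by 0.03. No paired analysis was possible because each genotype has 1 library.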
